A study of Danio rerio with 114 samples.

Results

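This report describes 76 genes of the zebrafish embryo, of 31466 counted, that were nearly absent from wild-type (WT) embryos at the 2-cell stage and present at the sphere stage. They were selected on the WT libraries from ribosomal-RNA-depleted RNA (rRNA-), as genes with a mean of at least 5 CPM (reads of a gene relative to all gene reads of its library, scaled to 1e6) at sphere and under 2 CPM at 2 cell. The ranking was meant to keep 150 genes, but only 76 met both limits, so all 76 are members. The WT rRNA- levels at these stages chose the members and are given below as description, without a test. RNA was sequenced from WT fish of the TLAB strain and from ski7-/- fish of the same strain background, which carry a frameshifting deletion in the exon of hbs1l that is specific to Ski7, a cofactor of the cytoplasmic RNA exosome. The stages were 4 oocyte stages (O1 to O4, sorted by size and opacity), mature eggs before activation (UNA), after activation (ACT) and after fertilization (FER), and embryos at 2 cells (E1), 64 cells (E2), 1000 cells (E3) and sphere (E4). Each genotype, stage and library type was represented by 3 libraries, made from pooled eggs or embryos or from sorted oocytes. PolyA-selected (polyA+) libraries covered every stage and rRNA- libraries covered oocytes and embryos, 66 and 48 libraries respectively.

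The early zebrafish embryo runs on RNA and protein laid down in the oocyte. Its own genome is silent during the cleavage divisions and is switched on at the mid-blastula transition, when the first zygotic RNAs appear and many maternal RNAs begin to be cleared. The first transcribed loci include the miR-430 cluster, whose microRNA promotes the decay of maternal RNAs, and genes for transcription factors and signalling proteins that pattern the blastula.

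The polyA+ libraries held 2910639 to 145420525 gene reads each and the rRNA- ones 1439427 to 46600444, so 3 reads correspond to between 0.0206 and 1.03 CPM in the former and between 0.0644 and 2.08 CPM in the latter. Since reads are not independent molecules, these limits cover counting error only. An individual library stood apart. The polyA+ library labelled ski7-/- O2 replicate 1 held 131 CPM of the 36 members that stayed under 1 CPM in every WT oocyte and egg group, whereas replicates 2 and 3 of that group held 1.74 and 2.38 CPM. In that library klf17, a member outside the 36, was at 34.2 CPM, and of the 36 irx7 was at 14.6 CPM and drll.3 at 21.4 CPM, and in replicates 2 and 3 none of these reached 1 CPM. Over the 28 of these 36 members with at least 2 CPM in WT polyA+ embryos at E4, its level was at a median of 32.4% of the WT E4 mean. The rRNA- library labelled ski7-/- O2 replicate 1 held 4.52 CPM of the 36 members. The origin of the reads in the polyA+ library was not tested, and oocyte results are given with and without replicate 1. At E4, replicate 1 held the highest summed level of the 36 members in both genotypes and both library types.

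**Figure D1:**
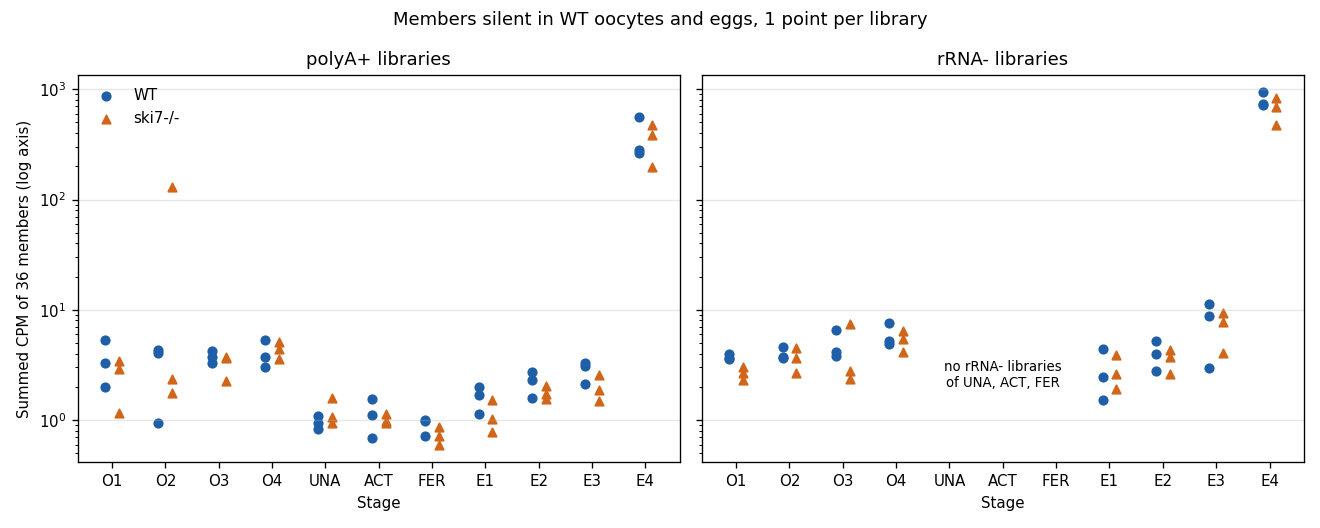
Summed CPM (log axis) of the 36 members that were silent in WT oocytes and eggs, by stage, with 1 point per library, circles for WT and triangles for ski7-/-. All libraries before E4 lie under 12 CPM except the ski7-/- O2 polyA+ library at 131 CPM, and all E4 libraries lie above 190 CPM.

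The members split by what the ovary held. In WT oocytes and eggs, 36 stayed under 1 CPM in every group, 22 reached 5 CPM or more in at least 1 group, and 18 lay between. These classes were drawn after the levels were seen. Of the 76, 62 had a symbol in the reference table and 14 were known by identifier only. Several symbols in that table follow the human spelling and 6 stand for more than 1 zebrafish gene, so the identifier is given with them. In WT rRNA- embryos at E1, 31 members had no read in any library and 47 had 3 reads or fewer over the 3 libraries. The 76 together made up between 0.144% and 0.225% of WT reads at E4 in rRNA- RNA.

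Values near the limits show how sharp they were. Just inside were ATXN2 (ENSDARG00000052897), with 5.01 CPM at E4 and 1.97 CPM at E1, U1 (ENSDARG00000103784) with 5.10 CPM at E4, and klf2b, with 1.84 CPM at E1. Just outside were the miR-430 hairpin dre-mir-430a-14 with 4.96 CPM at E4, kctd12b with 4.92 CPM at E4, and SDK1 with 2.12 CPM at E1. Of the genes at 5 CPM or more at E4, 10078 of 10154 already had 2 CPM or more at E1. Leaving out WT replicate 1, 2 or 3 kept 65, 70 and 69 members, and 58 members were kept in every case.

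The rise of the members could be tested in ski7-/- rRNA- embryos, which the selection did not use. At E4 compared with E1, 43 members were higher and none was lower by edgeR's quasi-likelihood test at an adjusted p of 0.05, of 46 that passed the filter of 10 CPM in at least 3 libraries. Among all genes tested, 0.877% rose. Most members passed that filter through E4 itself, so this count only accounts for them. Without the filter all 76 could be tested, 61 rose and none fell. The 0.877% belongs to the filtered fit, so no share of all genes stands beside this count. With ski7-/- replicate 1 left out, 34 rose of 41 tested. The 3 tested members that did not pass were IDH3G (ENSDARG00000023648), marcksl1a and CXCR4 (ENSDARG00000041959), each of which was already present in ski7-/- embryos at E1.

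The intervals between stages were tested in the same way and with the same limit on what the count shows. In ski7-/- rRNA- embryos 43 of the 46 tested members rose from E3 to E4, against 0.545% of all genes, and 27 did without ski7-/- replicate 1 or 3. Without the CPM filter 59 of 76 rose and none fell, again with no share of all genes from that fit beside it. No member passed from E1 to E2 (0% of all genes rose) or from E2 to E3 (0% of all genes rose), with 0 and 3 members at an unadjusted p under 0.05. DESeq2 called none in the first interval and 1 in the second, the hairpin dre-mir-430a-13. In WT rRNA- embryos no member passed from E2 to E3 either (0% of all genes rose, 9 members at an unadjusted p under 0.05, none called by DESeq2).

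In WT polyA+ RNA the filter was again passed mostly through E4, so the counts only account for the members. Of 36 members tested, 36 rose from E1 to E4 and 35 from E3 to E4, against 37.7% and 1.26% of all genes. Without WT replicate 1 or ski7-/- replicate 1 or 3, 24 passed the filter, and 24 and 21 to 23 rose. From E1 to E2 SOX3, zgc:163077, tagapa and IDH3G rose and zgc:100951 and ENSDARG00000077712 fell, 4 and 2 members, where 32.6% of all genes rose, and from E2 to E3 only GADD45B (ENSDARG00000013576), a growth arrest and DNA damage protein, rose, where 6.78% of all genes did. GADD45B had no reads in the WT E2 polyA+ libraries and 0.572, 0.264 and 0.334 CPM at E3. All 3 E3 libraries therefore lay above E2, at levels near the limit of 3 reads. WT replicate 2 decided the 6 calls from E1 to E2, since none was left without it, and GADD45B was not called without WT replicate 1 or 2. Deviations of same-numbered WT polyA+ and rRNA- libraries were correlated (0.501 to 0.774), so the WT polyA+ libraries are not independent of those that chose the members. The labels do not say whether both types came from the same embryos.

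The selection depended on the library type. With the same limits, WT polyA+ libraries gave 691 genes, of which 637 had 2 CPM or more at E1 in WT rRNA- RNA. The 150 of these with the largest ranking value held 36 members, or 24% of that list and 47.4% of the members. Applied to ski7-/- rRNA- libraries, the limits gave 70 genes, of which 54 were members, or 77.1% of that list and 71.1% of the members. Of the 22 members found by the WT rule alone, 10 had 2 CPM or more at E1 in ski7-/- and 15 were under 5 CPM at E4. Of the 16 genes found by the ski7-/- rule alone, 5 had 2 CPM or more at E1 in WT and 11 were under 5 CPM at E4, among them lft2, an inhibitor of Nodal signalling, at 3.78 CPM.

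Hairpins of miR-430 headed the ranking. The files counted 47 hairpins of this family under dre-mir-430 symbols, of which 7 were members, and at least 3 more under other symbols, mir430a-1, mir430c-1 and mir430c-2, with WT means at E4 of 0.247, 1.11 and 1.33 CPM, which are not in the sums below. Reads were counted over the annotated hairpins and do not measure the mature microRNA. Per the methods of the study only uniquely mapped reads were counted. The hairpins are near-identical copies, so reads matching several of them may be missing, and single hairpins and their sums are uncertain. In rRNA- RNA dre-mir-430b-6 was at 106, 132 and 129 CPM in the WT E4 libraries and at 100, 79.2 and 99.3 CPM in those of ski7-/-. The hairpin dre-mir-430a-13 was at 112, 107 and 119 CPM in WT and at 101, 73.3 and 83.2 CPM in ski7-/-. For both, every mutant library lay below every WT library. Over these 47 hairpins the summed level at E4 was 408 ± 27.2 CPM (SD, n = 3) in WT and 299 ± 40.2 CPM (SD, n = 3) in ski7-/-, with ranges of 377 to 427 and 258 to 338 CPM that did not overlap. Since the E4 rRNA- libraries of WT chose the members, these differences carry no test. The 7 members held 353, 383 and 395 CPM of the WT sums, so a lower sum in ski7-/- was favoured in advance. Not every hairpin was lower in ski7-/-. The member dre-mir-430a-3 had means of 8.29 CPM in WT and 8.98 CPM in ski7-/-. Outside the members, dre-mir-430c-17 had 4.16 and 9.90 CPM and dre-mir-430a-11 had 1.41 and 6.22 CPM.

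In WT rRNA- oocytes the 7 member hairpins together reached at most 0.729 CPM, in an O4 library. At E2 none of the 47 hairpins had a read in WT rRNA- libraries and 1 had a read in ski7-/-. At E3, dre-mir-430a-13 was at 1.91, 0.827 and 4.33 CPM in WT and at 2.66, 1.56 and 1.81 CPM in ski7-/-, and dre-mir-430b-6 was at 2.46, 0.165 and 1.62 CPM in WT. All 6 E3 libraries thus held the former. The summed level of the 47 hairpins at E3 was 5.06 ± 3.44 CPM (SD, n = 3) in WT and 4.54 ± 2.62 CPM (SD, n = 3) in ski7-/-.

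PolyA+ libraries almost lacked the hairpins. Their summed level at E4 was 1.89 ± 0.743 CPM (SD, n = 3) in WT and 1.09 ± 0.547 CPM (SD, n = 3) in ski7-/-. In ski7-/- embryos at E4, 5 of 49 tested members were lower in polyA+ than in rRNA- RNA and none was higher, where 15.9% of all genes were lower. The members were chosen for their E4 level in rRNA- RNA, and the hairpins passed the filter only through rRNA- libraries, so this count is an account of them and their direction was favoured in advance. All 5 were miR-430 hairpins, with log2 fold changes from -9.29 (SE 0.79, adjusted p = 2.09e-08) for dre-mir-430a-13 to -7.64 (SE 0.69, adjusted p = 1.53e-07) for dre-mir-430b-17. Same-numbered libraries of both types deviated together, and with the replicate number as a block 11 members passed, a count without a share of all genes. Among the added ones were klf17, with a log2 fold change of 0.86 (SE 0.29, adjusted p = 0.0179), and admp, si:dkey-228b2.6, FILIP1 (ENSDARG00000078419) and another gene named after its clone, which were lower in polyA+ RNA by log2 values from -1.85 to -1.45.

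**Figure D2:**
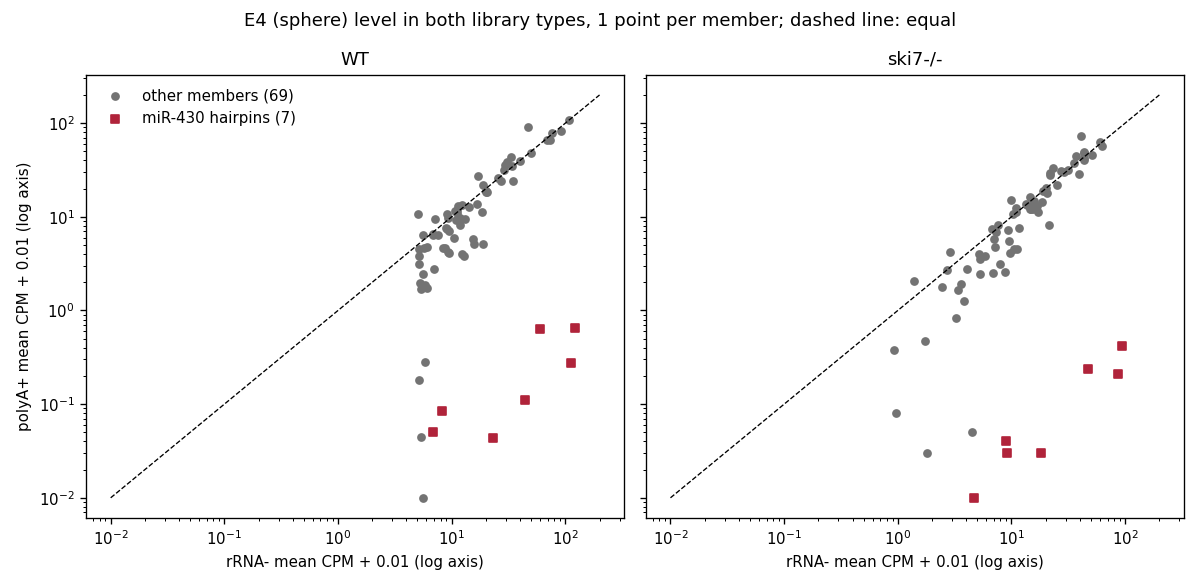
Mean CPM plus 0.01 of each member at E4 in polyA+ (vertical) against rRNA- libraries (horizontal), both on log axes, in WT (left) and ski7-/- (right), with squares for the 7 miR-430 hairpins and the dashed line marking equal levels. The hairpins lie far under the line in both genotypes, at 0.640 CPM or less in polyA+ RNA.

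A further 2 members known by identifier only, ENSDARG00000109437 and ENSDARG00000084828, were also near 0 in polyA+ RNA, with rRNA- means of 5.57 and 5.39 CPM in WT at E4. In ski7-/- at E4 their rRNA- means were 1.80 and 4.49 CPM. Without the CPM filter both were lower in polyA+ RNA of ski7-/- embryos at E4 (log2 fold change -5.85, SE 1.28, adjusted p = 0.00144, and -6.15, SE 0.84, adjusted p = 2.04e-06). Both were chosen for their rRNA- level in WT and entered that fit through rRNA- libraries, so this direction was favoured in advance. U1, which belongs to the spliceosomal U1 RNA of which the table lists many copies, was at 5.10 CPM in WT rRNA- RNA and at 0.171 CPM in WT polyA+ RNA at E4.

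The members include genes of transcription factors. The Krüppel-like factor klf17 was at 58.3, 55.3 and 26.3 CPM in WT rRNA- embryos at E4 and at 47.5, 26.6 and 48.4 CPM in ski7-/-. In the mutant it had risen from 1, 0 and 4 reads at E1 (log2 fold change 6.75, SE 0.74, adjusted p = 1.12e-05). The genotypes overlapped at E4, as they did for its relative klf2b, which was at 49.5, 21.4 and 20.3 CPM in WT and between 26.6 and 65.3 CPM in ski7-/-. The Iroquois homeobox gene irx7 was at 47.5, 28.4 and 23.3 CPM in WT and at 37.2, 26.4 and 47.6 CPM in ski7-/-, where it rose from E1 by 6.15 on the log2 scale (SE 0.76, adjusted p = 8.11e-05). Like SOX3 below, klf17 and irx7 passed the filter of 10 CPM only through E4 and were chosen for such a rise in WT. The tests of their rise therefore only account for them.

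SOX3 (ENSDARG00000053569), a SoxB1 factor of the early ectoderm, was at 46.5, 24.3 and 17.8 CPM in WT and at 35.9, 19.1 and 32.6 CPM in ski7-/-. It was among the factors with some RNA before E4, at means of 0.364 CPM in WT and 1.25 CPM in ski7-/- at E1, and its rise in the mutant was smaller (log2 fold change 4.37, SE 0.76, adjusted p = 0.00131). The homeobox repressor vox, which restricts the dorsal organizer, was at 51.0, 30.4 and 22.6 CPM in WT and at 46.5, 31.0 and 40.8 CPM in ski7-/-, against 3 reads over the ski7-/- E1 libraries. The genotypes overlapped for both genes. The notochord homeobox gene noto was at 5.39, 3.77 and 6.29 CPM in WT and 12.2, 5.08 and 10.6 CPM in ski7-/-, and since no read was found in ski7-/- at E1 it was at least 45.3-fold higher at E4, with 3 reads over the group as the floor.

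The Hairy-related repressor her5, the Grainyhead-like factor grhl3 of surface epithelia and the zinc finger genes GATA3 (ENSDARG00000016526) and GATA2 (ENSDARG00000059327) were also members. Their WT means at E4 in rRNA- RNA were 28.6, 12.3, 11.2 and 7.58 CPM, and those in ski7-/- were 21.9, 13.8, 10.2 and 7.33 CPM. For grhl3, with no read in ski7-/- at E1, the level at E4 was at least 67.2-fold higher. GATA2 differed from the others in WT polyA+ RNA, where its E3 level was 46.2% of that at E4. For grhl3 and GATA3 the share was 0.971% and 1.13%.

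Among the genes of signalling proteins, the BMP-like ligand gene admp was between 13.3 and 29.4 CPM in WT rRNA- embryos at E4 and at 9.37, 7.62 and 12.0 CPM in ski7-/-, and every mutant library lay below every WT library, whereas the polyA+ libraries overlapped. The apelin receptor gene aplnrb, which acts in gastrulation movements, was at 20.1, 6.95 and 7.03 CPM in WT and at 16.6, 5.93 and 24.5 CPM in ski7-/-, at least 76.4-fold above E1 in the mutant. The Wnt receptor FZD8 (ENSDARG00000045444) was at 11.8, 7.24 and 8.88 CPM in WT and at 12.5, 11.3 and 9.25 CPM in ski7-/-. The FGF receptor fgfr4 and the chemokine receptor CXCR4 had RNA in the ovary and are described below.

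**Figure D3:**
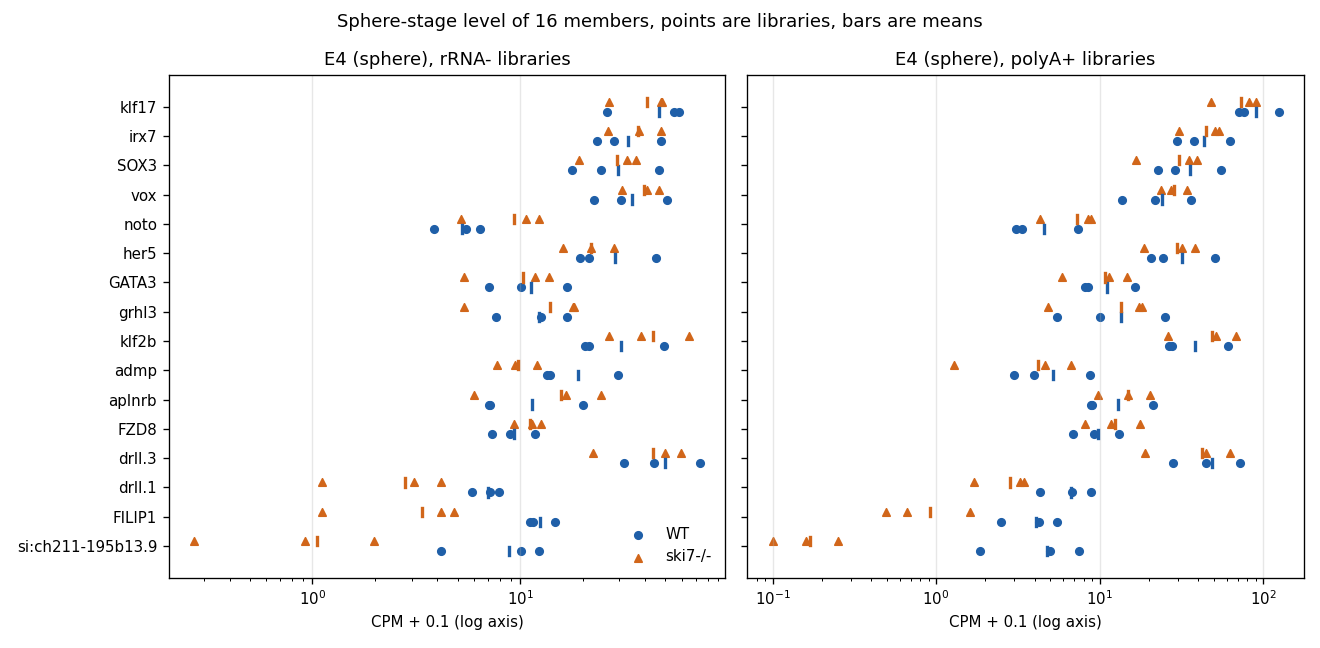
CPM plus 0.1 (log axis) of 16 members at E4 in rRNA- (left) and polyA+ libraries (right), with 1 point per library, circles for WT, triangles for ski7-/- and bars for means. The genotypes overlap for 12 of these genes in both library types, and stand apart in both for drll.1, FILIP1 and si:ch211-195b13.9.

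In WT rRNA- RNA at E1, 9 of 17 matched genes of the BMP list, 8 of 15 of the Wnt list and 5 of 10 of the Nodal list were under 1 CPM. Genes that stay low do not pass the filter. Of the BMP pathway list, 17 of 24 symbols matched, 8 were tested in ski7-/- rRNA- embryos, and 1, admp, rose from E1 to E4. Of the Wnt list 7 were tested and of the Nodal list 5, and none of either rose or fell. In WT polyA+ RNA, 2 rose and 2 fell of 6 BMP genes tested, 2 rose and 4 fell of 7 Wnt genes, and 2 rose and 2 fell of 5 Nodal genes. Of all genes tested, 37.7% rose there and 0.877% in ski7-/- rRNA- embryos. No share of all genes that fell is set beside these counts. Among the genes not tested, lft2 was at 0 CPM at E1 and 7.74 CPM at E4 in ski7-/- rRNA- RNA, and the BMP antagonist chrd at 0.0988 and 2.49 CPM. Of the ectoderm and SoxB list 7 were tested and 5 rose, of which 4 were members, SOX3, irx7, GATA3 and klf17, and the other was sox19b, which is maternal. These 4, like admp, were chosen for such a rise in WT, so their rise was favoured in advance. The lists can therefore not be compared by these counts. The list of first wave genes, which was compiled with such embryos in view and is no independent evidence, held 10 members, and of 15 tested 8 rose and 1 fell. The pluripotency factors nanog and pou5f3, which are maternal, were at 1147 and 886 CPM at E1 in WT rRNA- RNA and so lay far outside the limits.

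The members zgc:100951, ENSDARG00000116570, ENSDARG00000115096, ENSDARG00000077712, ENSDARG00000114211 and ENSDARG00000109703, to which no role is given here, had RNA in WT oocytes and again at E4. ENSDARG00000109703 differed from the others in eggs, at 2.25, 6.52 and 6.98 CPM in WT FER libraries, where no other of these exceeded 1.98 CPM. Only uniquely mapped reads were counted. Whether these genes are copies of each other that lose shared reads was not tested, so the values of each are uncertain. In WT rRNA- libraries at E4 zgc:100951 was at 167, 73.3 and 82.1 CPM, and in ski7-/- at 87.4, 42.0 and 52.5 CPM. In WT polyA+ oocytes it was at 19.4, 11.8 and 6.99 CPM at O1 and at 16.5, 12.2 and 9.40 CPM at O4, then at 0.179, 1.66 and 0 CPM at E1. It was thus present in the ovary, nearly absent from the cleaving embryo and present again at sphere.

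The clearest members of this kind carried RNA through oocyte growth. NET1 (ENSDARG00000032765), an exchange factor for RhoA, was at 3.45, 1.79 and 1.90 CPM in WT polyA+ oocytes at O1 and at 77.8, 126 and 121 CPM at O4. Fertilized eggs held 0.140, 0.283 and 0.113 CPM, and E4 embryos 18.5, 6.62 and 9.04 CPM. The O4 libraries lay above every E4 library, and the same held in ski7-/-, with 108, 80.2 and 166 CPM at O4 and 15.6, 5.71 and 12.5 CPM at E4. The ankyrin repeat and SOCS box gene asb11 was at 16.7, 35.0 and 48.2 CPM in WT at O4 and had no read at E1 in any polyA+ library of either genotype. The FGF receptor fgfr4 was at 19.8, 11.8 and 67.1 CPM at O4 in WT polyA+ RNA and sb:cb81 at 9.68, 24.5 and 35.6 CPM, and both were under 0.15 CPM in each WT library at E1.

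**Figure D4:**
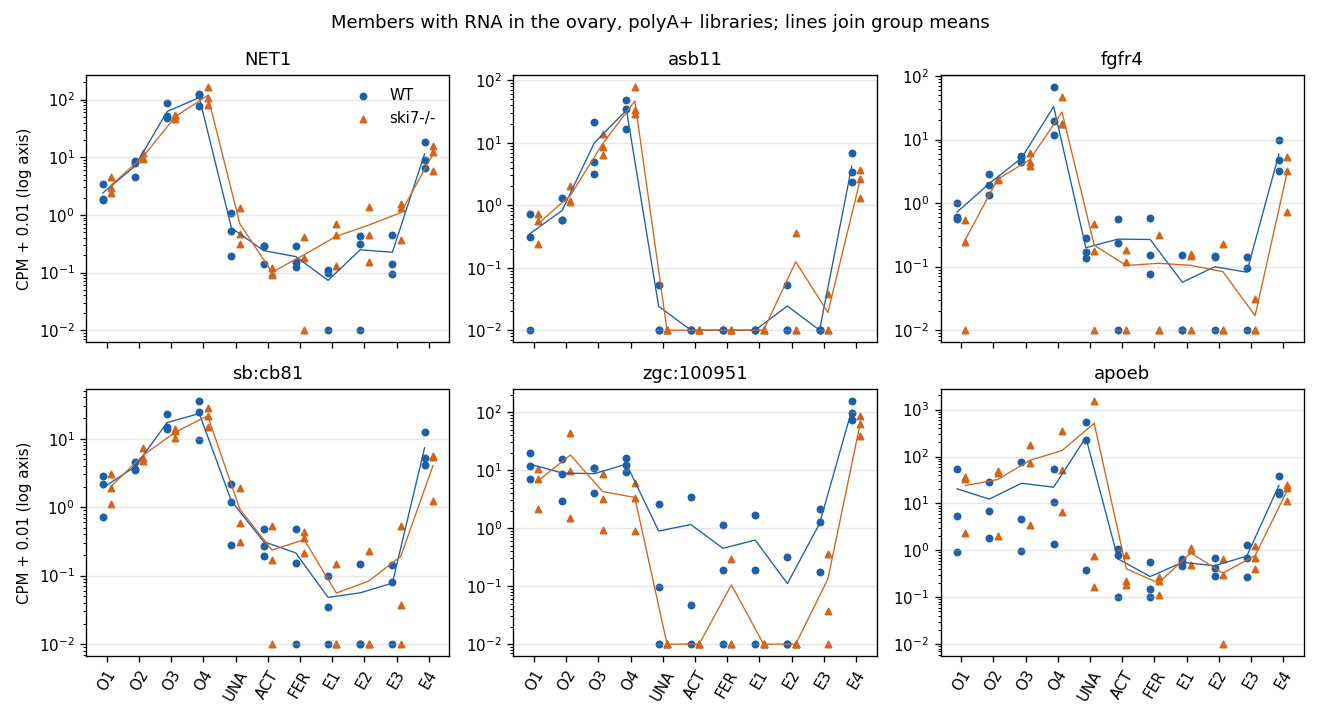
CPM plus 0.01 (log axis) of 6 members with ovarian RNA across all stages in polyA+ libraries, with circles for WT and triangles for ski7-/- libraries and lines joining group means. Each falls between O4 or UNA and the embryo and rises again at E4, and apoeb is spread over more than 3 orders of magnitude among UNA libraries.

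Ovarian levels were uneven between libraries for some members. The apolipoprotein E gene apoeb was at 0.366, 533 and 230 CPM in the 3 WT UNA libraries and at 0.152, 0.751 and 1532 CPM in those of ski7-/-, while no ACT or FER library exceeded 1.04 CPM. Summed markers of ovarian somatic cells, of which 8 of 14 listed matched, ranged from 143 to 253 CPM in WT UNA and from 182 to 197 CPM in ski7-/- UNA. These ranges do not tell which library held which sum. Their part in the result was not tested. ENSDARG00000111123 was at 7.65, 1213 and 5.61 CPM in WT rRNA- oocytes at O4 and at 562, 3302 and 555 CPM in ski7-/-, and in polyA+ oocytes at O3 at 0.357, 0.637 and 33.6 CPM in WT and at 0.408, 2174 and 0.45 CPM in ski7-/-. In the WT O4 rRNA- group and in both O3 polyA+ groups a single library thus carried most of its RNA. All ski7-/- O4 rRNA- libraries held 555 CPM or more, and no polyA+ library of O4 exceeded 3.49 CPM. In rRNA- embryos at E4 it was at 12.2, 2.03 and 3.33 CPM in WT and at 1.25, 1.52 and 0 CPM in ski7-/-.

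The genotypes were also compared in oocytes. In polyA+ oocytes 2 of 19 tested members were called at any stage, akap12b and CXCR4, where 16.2% of all genes were called, and in rRNA- oocytes 2 of 19, akap12b and marcksl1a, where 22.1% were. In the library type of its call, none of these members would have passed the filter on WT oocyte libraries alone. The calls therefore only account for them. At an unadjusted p under 0.05 there were 7 and 9 members, DESeq2 called 5 and 6, and the fit with a replicate block called 4 and 4. That block joined WT and ski7-/- libraries of the same number. Their deviations had median correlations of -0.0103 in polyA+ and 0.0364 in rRNA- oocytes, so the block is no true pairing. The A-kinase anchoring gene akap12b was at 3.81, 4.98 and 7.28 CPM in WT polyA+ oocytes at O4 and at 19.9, 10.9 and 34.5 CPM in ski7-/- (log2 fold change 2.03, SE 0.42, adjusted p = 0.00416), and all mutant libraries lay above all WT libraries. These ski7-/- O4 libraries were the only polyA+ oocyte libraries in which akap12b reached 10 CPM. It was also higher at O4 in rRNA- RNA (log2 fold change 1.85, SE 0.50, adjusted p = 0.0190). Without ski7-/- replicate 1, 1 member was called in polyA+ and 1 in rRNA- oocytes, and without ski7-/- replicate 2 none was called in polyA+ oocytes. In mature eggs none of 3 tested members was called, where 23.6% of all genes were, and none reached an unadjusted p under 0.05 or was called by DESeq2. Without WT replicate 3, CXCR4 and IDH3G were called. No WT egg library of IDH3G reached 10 CPM, so its call only accounts for it.

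At E1 in polyA+ RNA, 6 of 36 tested members were higher and 2 lower in ski7-/-, where 28.2% of all genes were called. With 1 replicate left out 3 to 7 were called, with 3 without WT replicate 2 or ski7-/- replicate 1 and 5 without ski7-/- replicate 3, and in a fit of these groups alone only 2 passed the filter and both were called. These counts have no share of all genes beside them. The selection required a low level in WT at this stage and set no limit on ski7-/-, so higher levels in the mutant are favoured by the choice itself. The 2 with the most RNA were IDH3G, a subunit of mitochondrial isocitrate dehydrogenase, and marcksl1a, which encodes a MARCKS-like actin-binding protein. IDH3G was at 0.179, 0.372 and 0 CPM in WT and at 20.3, 17.8 and 10.7 CPM in ski7-/- (log2 fold change 5.84, SE 1.17, adjusted p = 0.00110). For marcksl1a the WT libraries held 0.0897, 0.149 and 0.140 CPM and the ski7-/- libraries 11.1, 14.7 and 7.49 CPM (log2 fold change 6.22, SE 0.63). In both the mutant libraries lay far above those of WT. Neither gene would have passed the filter of 10 CPM in 3 libraries on WT embryo libraries alone, in either library type. Their calls at E1 to E4 therefore only account for them. CXCR4 was higher as well, at 4.48, 1.14 and 4.06 CPM in WT and 17.3, 10.7 and 12.9 CPM in ski7-/- (log2 fold change 2.00, SE 0.57, adjusted p = 0.0139). The other higher members were SOX3, irx7 and tagapa, of which irx7 rested on 2 reads in each ski7-/- library and none in WT. For tagapa the ski7-/- libraries held 0, 3 and 4 reads and those of WT none. The lower ones were zgc:100951, with 2, 67 and 0 reads in the WT libraries, and ENSDARG00000077712, with 4, 72 and 0. Neither had a read in ski7-/-, and most of their WT reads came from replicate 2. IDH3G and marcksl1a also had ovarian RNA in both genotypes. In rRNA- oocytes at O4, IDH3G had means of 17.1 CPM in WT and 21.75 CPM in ski7-/-, and marcksl1a of 9.24 and 12.1 CPM. In polyA+ RNA of fertilized eggs, IDH3G had means of 2.21 CPM in WT and 9.04 CPM in ski7-/-, and marcksl1a of 0.555 and 2.51 CPM, with overlapping libraries. Both WT means came from replicate 3 alone, with 295 reads of IDH3G and 74 of marcksl1a, while every ski7-/- library held reads of both.

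At E2, 3 members were called in polyA+ RNA, 2 higher and 1 lower, where 15.4% of all genes were called, and 2 in rRNA- RNA, where 10.9% were. IDH3G and marcksl1a were the higher ones in both. At E3, 3 members were higher and 5 lower in polyA+ RNA, where 14.8% of all genes were called, and 4 were higher and 1 lower of 46 tested in rRNA- RNA, where 14.6% were. The polyA+ E3 count rests on single libraries: without ski7-/- replicate 2, which was the deepest, 2 members were left, and without WT replicate 1 or ski7-/- replicate 3, 4.

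At E3 marcksl1a, IDH3G and CXCR4 were higher in both library types, and zgc:163077 was called in rRNA- RNA only. In polyA+ RNA at E3, marcksl1a was at 0.643, 0.396 and 0.250 CPM in WT and at 18.7, 25.4 and 10.9 CPM in ski7-/- (log2 fold change 5.35, SE 0.57), and the values did not overlap. IDH3G was at 0.429, 0.396 and 0.667 CPM in WT and at 36.8, 35.9 and 30.4 CPM in ski7-/- (log2 fold change 6.05, SE 1.13, adjusted p = 0.00120). CXCR4, the receptor for the chemokine Cxcl12, was at 3.86, 0.791 and 5.01 CPM in WT and at 16, 9.06 and 9.18 CPM in ski7-/- (log2 fold change 1.75, SE 0.56, adjusted p = 0.0425). For CXCR4 the call was lost when any single replicate other than WT replicate 2 was left out (adjusted p from 0.0531 to 0.163). In rRNA- RNA zgc:163077 was at 0.273, 0.165 and 0.541 CPM in WT and 2.90, 1.56 and 2.27 CPM in ski7-/- (log2 fold change 2.92, SE 0.75, adjusted p = 0.0125). The selection limited the E1 level in WT alone, and same-numbered WT rRNA- libraries of different embryo stages deviated together (median correlation 0.491). Higher levels in ski7-/- at E3 may therefore be favoured by the choice as well, also for CXCR4 and zgc:163077.

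The members that were lower at E3 had little RNA at that stage in either genotype. The zinc finger gene drll.3 was at 0.214, 1.19 and 0.250 CPM in WT polyA+ libraries and at 0, 0 and 0.121 CPM in ski7-/-, and the others were zgc:100951, ENSDARG00000116570, ENSDARG00000115096 and ENSDARG00000077712 of the set described above. ENSDARG00000116570 was the one lower in rRNA- RNA, at 0.546, 1.32 and 0.541 CPM in WT and no read in ski7-/-.

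**Figure D5:**
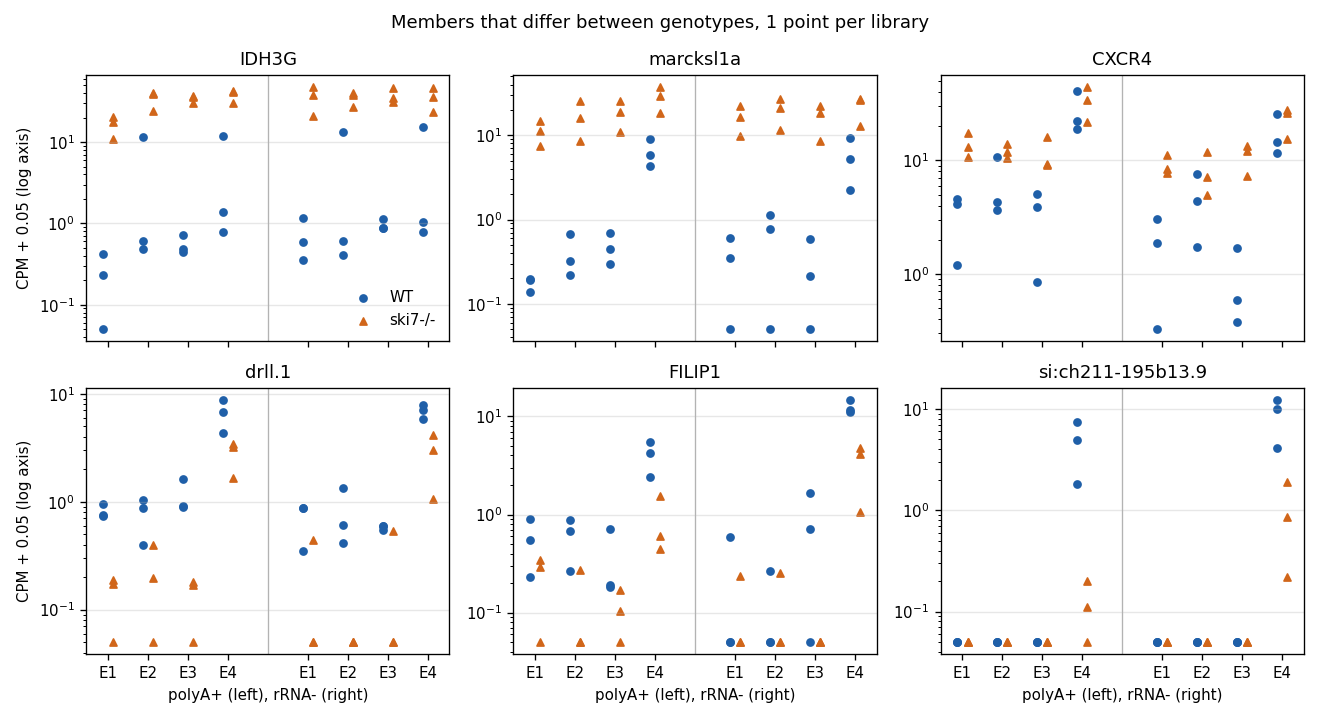
CPM plus 0.05 (log axis) of 6 members in embryos, polyA+ libraries on the left and rRNA- libraries on the right of each panel, with 1 point per library, circles for WT and triangles for ski7-/-. IDH3G and marcksl1a, which also had ovarian RNA in both genotypes, are present from E1 in ski7-/-. The genes drll.1, FILIP1 and si:ch211-195b13.9 are lower in ski7-/- at E4, and the polyA+ means of drll.1 and FILIP1 are lower from E1.

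At E4 in polyA+ RNA, 2 of 36 tested members were called, IDH3G (log2 fold change 3.01, SE 0.91, adjusted p = 0.0320) and marcksl1a (log2 fold change 2.13, SE 0.45, adjusted p = 0.00362), where 15% of all genes were. As said for E1, neither would have passed the filter on WT libraries alone. The other 34 had log2 fold changes from -0.83 for zgc:100951 to 0.64 for zgc:163077, with a median SE of 0.55. The median over all tested members was -0.06, beside -0.01 over all genes tested. In rRNA- RNA, given without a test, the ski7-/- mean was at a median of 80.5% of the WT mean over the 76 members, with quartiles of 66.7% and 112%. Every mutant library lay below every WT library for 14 members and above for 2. Among the 14 were the miR-430 hairpins dre-mir-430b-5, dre-mir-430b-6, dre-mir-430b-16, dre-mir-430b-17, dre-mir-430a-7 and dre-mir-430a-13, near-identical copies whose single values are uncertain. In polyA+ RNA the median was 93.4% over 61 members with at least 2 CPM in WT. No miR-430 hairpin is among these 61, so the 2 medians are of different members. Of all 76 members, 3 lay wholly below and 2 wholly above in polyA+ RNA. The share of all genes that stand apart in this way was not counted, so these counts only describe the members.

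The same 5 members stood apart in both library types at E4. The share of all genes that did so was not counted, so this count too only describes the members. IDH3G and marcksl1a were higher in ski7-/-, and drll.1, FILIP1 and si:ch211-195b13.9 were lower. The gene si:ch211-195b13.9 was at 12.2, 4.06 and 9.99 CPM in WT rRNA- libraries and at 1.87, 0.169 and 0.816 CPM in ski7-/-, and in polyA+ RNA at 7.37, 1.76 and 4.87 CPM in WT and 0.0601, 0.151 and 0 CPM in ski7-/-. FILIP1, named for a filamin-interacting protein, was at 5.4, 2.38 and 4.16 CPM in WT polyA+ libraries and 1.5, 0.393 and 0.560 CPM in ski7-/-. Both were below the 10 CPM filter. Lower means were not limited to E4. In polyA+ eggs FILIP1 had means of 1.73, 0.986 and 1.41 CPM at UNA, ACT and FER in WT. In ski7-/- they were 0.345, 0.0913 and 0.0953 CPM, without overlap of libraries. In polyA+ embryos drll.1 had means of 0.764, 0.720 and 1.09 CPM at E1, E2 and E3 in WT. In ski7-/- they were 0.0860, 0.163 and 0.0838 CPM. In unactivated eggs drll.1 was higher in ski7-/-, at 0.552 against 0.297 CPM. Neither gene passed the 10 CPM filter there. The members were selected for their WT level at E4, so a lower level in the mutant was favoured in advance. Both si:ch211-195b13.9 and FILIP1 pass a filter of 1 CPM in 3 libraries only through WT E4. Outside WT E4, FILIP1 reached 1 CPM in no polyA+ embryo library but ski7-/- replicate 1 at E4. The calls of these genes under looser filters therefore only account for them. With a filter of 1 CPM, 5 members were called at E4, and si:ch211-195b13.9 (log2 fold change -5.55, SE 0.93, adjusted p = 0.00774), FILIP1 (log2 fold change -2.31, SE 0.72, adjusted p = 0.0403) and si:dkey-32e6.3 were the lower ones. Without a CPM filter 4 were called, and FILIP1 was not among them. No share of all genes stands beside the counts under these looser filters, so they only describe the members.

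Some members owed their level at E4 to a single WT library. IDH3G was at 0.980, 15.4 and 0.740 CPM in WT rRNA- libraries at E4 and at 0.737, 11.8 and 1.32 CPM in polyA+ libraries, and at E2 replicate 2 was again the high one, at 13.2 and 11.6 CPM, while every WT library of E1 and E3 was under 2 CPM. The gene si:dkey-32e6.3 was at 1.96, 23.2 and 2.22 CPM in rRNA- and 2.09, 27.9 and 2.23 CPM in polyA+ libraries of WT at E4, with no ski7-/- E4 library above 2.46 CPM. ATXN2 was at 0.490, 11.6 and 2.96 CPM in WT rRNA- libraries. Without WT replicate 2 these 3 did not meet the limit at E4.

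The difference between the genotypes did not change detectably from E3 to E4 in polyA+ RNA. None of 36 tested members passed the test of that change, as none of all genes did (0%), with 8 members at an unadjusted p under 0.05 and none called by DESeq2. Marcksl1a rose in WT from a mean of 0.43 CPM at E3 to 6.37 CPM at E4 and in ski7-/- from 18.3 to 28.3 CPM.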

How the data were processed

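Gene counts of 66 polyA+ and 48 rRNA- libraries were used. The counts were made and deposited by the authors as reads per gene (unnormalized). The submitters' processing notes list cutadapt 1.18, while the methods of the study name bbduk for adapter trimming. Per those methods, reads were aligned with HISAT2 2.1.0 to GRCz11, and those that mapped uniquely were counted with HTSeq 0.9.1. The transcript-level tables deposited beside them were not used. The 5 summary rows of each table were dropped, and CPM is the share of the remaining reads scaled to 1e6. Symbols were found for 28965 of 31466 identifiers.

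Tests were fitted on all genes with edgeR 4.0.16 (TMM, quasi-likelihood, Benjamini-Hochberg adjustment, R 4.3.3), with all groups of embryos, oocytes or eggs of a library type sharing the estimate of spread, after a filter of 10 CPM in 3 libraries. Scripts were tested on simulated counts. Alternatives were DESeq2 1.42.0, other scalings, filters and tests, a replicate block, a fit of the compared groups alone and leaving out each replicate. Shares of all genes are those of the main fit at the adjusted threshold. Counts under the alternatives or at an unadjusted p under 0.05 have no share beside them and only describe the members. Named members were drawn from the 20 highest ranks, members of the gene lists, those past the threshold between genotypes whose libraries did not overlap, and those at either end of the E3 to E4 ratio, the oocyte level and the library type ratio. Others were named after their values were seen. The members and the gene lists were chosen with earlier results of these data known.

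Same-numbered libraries of different stages of ski7-/- embryos deviated together in rRNA- RNA (correlations of deviations 0.703 to 0.827), as did polyA+ and rRNA- libraries of ski7-/- embryos (0.674 to 0.800), so these numbers pair samples. Those of WT with ski7-/- did not (-0.105 to 0.0622 in polyA+ embryos). Oocyte and egg replicates came from 3 females per genotype, and the 3 egg stages of a replicate from 1 female. For embryos the sources used here do not say so, and p-values there measure the spread between these samples. The values of 1 member are not reported here.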

Additional observations from a re-analysis of the deposited data

Results flagged for a closer look

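Signal outside the embryo comparisons was seen in a pair of places. The summed level of the 36 members silent in WT oocytes was 131 CPM in the ski7-/- O2 polyA+ library of replicate 1, against at most 5.32 CPM in any WT polyA+ oocyte library. The apoeb mean in WT unactivated eggs was 254 CPM, carried by replicates 2 and 3, against at most 1.04 CPM in activated or fertilized eggs. The cause of neither was tested.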

How the results depend on the processing

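Changing the scaling moved no count of called members by more than 1.5 times. Fitting only the compared groups lowered the counts between genotypes in polyA+ RNA to 2 at E1, 0 at E2, 2 at E3 and 1 at E4, and in rRNA- RNA to 1 at E2 and 1 at E3. In that fit WT polyA+ RNA gave 0 from E1 to E2, 0 from E2 to E3, 21 from E3 to E4 and 22 from E1 to E4, ski7-/- rRNA- RNA gave 25 for both E3 to E4 and E1 to E4, and oocytes gave 0 in polyA+ and 1 in rRNA- RNA. A filter of 1 CPM gave 5 between genotypes at E4 in polyA+ RNA, 55 and 64 for the WT polyA+ rises to E4 from E3 and E1, 9 between library types and 1 in eggs. Without a CPM filter these were 4, 55, 67, 9 and 1, with 6 in rRNA- oocytes. The likelihood-ratio test gave 5 at E2 in rRNA- RNA between genotypes, 5 from E2 to E3 in WT polyA+ RNA, 1 from E2 to E3 in both ski7-/- and WT rRNA- RNA and 4 in rRNA- oocytes. DESeq2 gave 3 and 2 for E1 to E2 and E2 to E3 in WT polyA+ RNA, 1 from E2 to E3 in ski7-/- rRNA- RNA, and 5 and 6 in polyA+ and rRNA- oocytes. Shares of all genes were not set beside the counts under these settings. The cause of these changes was not tested.

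With the replicate number as a block, counts became 4 at E2 in rRNA- RNA between genotypes, 2 from E2 to E3 in WT polyA+ RNA, 11 between library types and 4 in each type of oocyte RNA. The other counts stayed within 1.5 times. Here too, shares of all genes were not set beside the counts. Between genotypes this block joined WT and ski7-/- libraries of the same number, which did not deviate together. For stages and library types it was set within each genotype.

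Leaving out 1 replicate at a time gave 3 to 7, 1 to 3, 2 to 7 and 1 to 2 members between genotypes at E1, E2, E3 and E4 in polyA+ RNA, and 1 to 2 and 3 to 5 at E2 and E3 in rRNA- RNA. WT polyA+ RNA gave 0 to 6 from E1 to E2, 0 to 1 from E2 to E3, 21 to 35 from E3 to E4 and 24 to 36 from E1 to E4. In ski7-/- rRNA- RNA 27 to 42 rose from E3 to E4 and 34 to 42 from E1 to E4. Between library types 5 to 6 were called, in oocytes 0 to 2 in polyA+ and 1 to 2 in rRNA- RNA, and in eggs 0 to 2. Shares of all genes were not set beside these counts either. Leaving out a replicate also changed which members passed the filter, so a lower count need not mean fewer calls among the same members. Longer or shorter selections by rank could not be run, since 76 genes met the limits.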
